A study of Homo sapiens with 18 samples.

Results

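RN7SL1 and RN7SL2, which encode near-identical RNAs of the signal recognition particle (SRP), RMRP, the RNA of RNase MRP, and RPPH1, the RNA of RNase P, were followed through 18 RNA-seq libraries. They are 4 of the 26372 gene symbols in the deposited expression table and were chosen by symbol, as abundant structured RNAs. All libraries came from SH-SY5Y, an established human neuroblastoma cell line that can be driven towards a neuron-like state. The cells were infected with FUGW-based lentivirus carrying wild-type ZNHIT3 (WT), ZNHIT3-C14R, or ZNHIT3 with a short deletion, so the cells of every group, WT included, had received a ZNHIT3 construct. ZNHIT3 is a factor of small nucleolar ribonucleoprotein (snoRNP) assembly. The deletion libraries are titled as depleted, and their labels give the deletion as 251 to 254 in replicate 1, 251 to 255 in replicate 2 and 251 to 256 in replicate 3, whereas the series' design names the first of these; they are treated here as 1 group. Each construct was sampled at day 0 and at day 18 of differentiation in serum-free neurobasal/B27 plus medium with Glutamax, BDNF, KCl, dibutyryl cyclic AMP and all-trans retinoic acid. That gives 6 groups of 3 libraries. The labels do not say whether the 3 libraries of a group came from separate cultures, so p-values measure the spread between these libraries, which may be technical.

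SRP binds the signal sequence of a nascent secretory or membrane protein at the ribosome and brings the ribosome to the translocon of the endoplasmic reticulum, and its RNA forms the scaffold of the particle. RNase P cuts the 5′ leader from precursor tRNAs, and RNase MRP cuts precursor ribosomal RNA; the 2 enzymes share most of their protein subunits but have different RNAs. All 4 RNAs are made by RNA polymerase III.

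RN7SL1 and RN7SL2 are near-identical over their whole length. A read from a stretch they share fits both genes equally, and how such reads were divided is not given in the sources used here. The separate values of RN7SL1 and RN7SL2 are therefore uncertain, and other near-identical copies of the SRP RNA could have added to them; only these 2 symbols starting with RN7SL are in the table.

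The RNAs of the 2 nucleases are shown because the ratio of their levels changed during differentiation. In GENCODE 29 (GRCh38), RMRP lies at chr9:35657751-35658018 on the minus strand (268 bases) and overlaps no other annotated gene. RPPH1 lies at chr14:20343075-20343407 on the minus strand (333 bases). RPPH1 is printed from base 1 to base 300, and no base is capitalised in either.
RMRP: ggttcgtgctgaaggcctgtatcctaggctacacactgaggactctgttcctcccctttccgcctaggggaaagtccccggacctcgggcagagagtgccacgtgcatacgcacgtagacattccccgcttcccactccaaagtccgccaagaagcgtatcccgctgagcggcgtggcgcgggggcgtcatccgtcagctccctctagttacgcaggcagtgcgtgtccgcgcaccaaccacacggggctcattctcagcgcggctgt
RPPH1: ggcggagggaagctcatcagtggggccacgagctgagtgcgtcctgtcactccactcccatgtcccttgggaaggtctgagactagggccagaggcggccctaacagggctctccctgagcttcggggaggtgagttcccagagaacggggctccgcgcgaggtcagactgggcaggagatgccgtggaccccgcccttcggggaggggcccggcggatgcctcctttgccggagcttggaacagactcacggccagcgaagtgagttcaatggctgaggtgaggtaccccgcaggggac
G and C made up 63.1% of RMRP and 64.6% of RPPH1. RN7SL1 sits within an intron of RPS29, a ribosomal protein gene on the opposite strand, and within AL139099.4, a noncoding gene on its own strand. RN7SL2 sits in an intron of the noncoding AL627171.2, and RPPH1 lies within the noncoding AL355075.4 and overlaps an exon of it, both on the same strand. Whether strand was used in counting is not given in the sources used here, and the 3 noncoding host genes have no row in the table.

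Values are FPKM as the authors deposited them, a fragment count divided by transcript length and library depth. The 4 RNAs were among the 5 highest genes of every library, with SNORD3A, the U3 small nucleolar RNA, as the other, except in C14R day 18 replicate 1, where SCARNA10 stood above SNORD3A. Apart from these 5, the highest gene stood at 8300 to 9227 FPKM at day 0 and 6585 to 7863 at day 18. The 4 RNAs made up 20.6 to 46.6% of the FPKM sum at day 0 and 27.5 to 45.5% at day 18. With SNORD3A left out of the sum, they made up 47.4 to 52.7% at day 0 and 27.8 to 51.1% at day 18. At day 0, the highest library exceeded the lowest by 1.34-fold for RN7SL1, 1.27-fold for RN7SL2, 1.33-fold for RMRP and 1.27-fold for RPPH1. SNORD3A ranged 19.1-fold at day 0, from 68086 to 1301250 FPKM. The length correction matters most for transcripts this short, and its settings are not given in the sources used here. Levels are therefore compared between genes only as these authors' length-scaled values.

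Across the whole table, relative depth, read from the step size of low values, ran from 58.6 to 83.5% of the deepest library at day 0 and from 81.8 to 100% at day 18. Of 11 neuroblastoma identity markers, 10 had a day 0 mean of at least 1 FPKM, and the exception was TH. From day 0 to day 18 the summed level of 10 neuronal markers moved from 918.1 to 962.5 FPKM up to 2069 to 2287, that of 8 proliferation genes from 371.3 to 409.8 down to 138.4 to 180.2, and that of 12 markers of mesenchymal or other cell types from 376.9 to 400.9 down to 101.8 to 121.5. Of the last 12 markers, 6 had a mean of at least 1 FPKM on either day. The summed level of the 11 neuroblastoma identity markers moved from 976 to 1066 FPKM up to 2150 to 2404. The median log2 change of those tested was 0.03 in WT. The ranges of these sums do not overlap between days, and their part in the changes of the 4 RNAs was not tested. In these bulk samples, fewer cells of a type and less RNA per cell cannot be told apart. Mean ZNHIT3, delivered and endogenous together, stood at 537.8 (WT), 423.8 (C14R) and 302.5 FPKM (deletion) on day 0, against 1153, 653.2 and 301.5 on day 18.

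The library C14R day 18 replicate 1 stood apart. Each of the 4 RNAs was lower there than in any of the other 8 day 18 libraries, at 40.9% of the mean of C14R replicates 2 and 3 for RN7SL1, 45.5% for RN7SL2, 42.7% for RMRP and 42.9% for RPPH1. Other structured RNAs were also lower in that library, by differing amounts: SNORD3A was at 14.5%, SNORA73A at 50.2%, SCARNA2 at 59.8%, the telomerase RNA TERC at 71.5% and BCYRN1 at 81.4% of the same mean. PARP2 and CCDC107, the protein-coding genes next to RPPH1 and RMRP, were at 111% and 85.9%. Of all genes tested, 27% were lower in this library than in any of the other 8 day 18 libraries. The main results that use this library are given below with and without it.

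RMRP was lower at day 18 than at day 0 with every construct, and it changed most of the 4 RNAs. In WT, RMRP stood at 80048, 85423 and 82076 FPKM on day 0 and at 26343, 20570 and 17902 on day 18. With the C14R construct it was at 69801, 79519 and 82046, then at 11441, 26474 and 27109. In deletion libraries it was at 83072, 64206 and 83519, then at 25510, 25307 and 28502. The lowest of the 9 day 0 libraries was above the highest of the 9 day 18 libraries, so the days did not overlap. The day 18 mean was 26.2% of the day 0 mean for WT, 28.1% for C14R and 34.4% for deletion libraries. In one limma fit over the 13785 genes with a mean of at least 1 FPKM, on log2(FPKM + 1), the change in WT was -1.95 (SE 0.26, 95% interval -2.5 to -1.41, Benjamini-Hochberg adjusted p = 2.76e-06, n = 3 against 3). It was -1.93 in C14R (adjusted p = 3.12e-06) and -1.53 in deletion libraries (adjusted p = 4.19e-05). Without C14R day 18 replicate 1, RMRP changed by -1.52 in C14R (limma adjusted p = 3.42e-07). After quantile normalization, where values follow rank order alone, the RMRP change was -0.92 in WT (limma adjusted p = 0.00502) and 0 with both variants. By size of log2 change, RMRP ranked 371 of the 13785 genes in WT.

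RPPH1 also passed the threshold in the lower direction with every construct, by a smaller amount. WT libraries held 36723, 38000 and 34773 FPKM of RPPH1 at day 0 and 30002, 22832 and 19857 at day 18. C14R libraries held 32907, 36908 and 33935, then 9058, 20158 and 22064. Deletion libraries held 41752, 37874 and 40171, then 22972, 24954 and 23177. The days did not overlap here either, although the highest day 18 library, WT replicate 1, came close to the lowest day 0 library. The day 18 mean was 66.4% of the day 0 mean in WT (log2 change -0.61, SE 0.24, 95% interval -1.12 to -0.0993, limma adjusted p = 0.0318). It was 49.4% in C14R (-1.12, limma adjusted p = 0.000514) and 59.4% in deletion libraries (-0.75, limma adjusted p = 0.0102). Without C14R day 18 replicate 1, the C14R change of RPPH1 was -0.71 (limma adjusted p = 0.000249). The WT call did not hold without a filter on low values (limma adjusted p = 0.184) or with small RNA genes left out of the library scaling (-0.40, adjusted p = 0.118), nor without any 1 of the WT day 0 libraries or WT day 18 replicate 2 or 3 (limma adjusted p up to 0.122). The deletion call also ended without the filter (limma adjusted p = 0.102). After quantile normalization RPPH1 turned to 0.63 in WT (limma adjusted p = 0.000513) and 0.21 in C14R, and was at 0 in deletion libraries.

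The SRP RNA genes did not pass the threshold in any of the 3 constructs. RN7SL1 in WT was at 197470, 193668 and 184356 FPKM on day 0 and at 207098, 143286 and 122637 on day 18. With the C14R construct RN7SL1 was at 171455, 197806 and 184099, then at 66353, 164060 and 160466. In deletion libraries RN7SL1 was at 229380, 207603 and 221965, then at 173260, 180640 and 159770. The days overlapped in WT, where replicate 1 of day 18 was above all WT day 0 libraries, and did not overlap in C14R or deletion libraries, where day 18 was lower. The log2 change of RN7SL1 was -0.32 for WT (95% interval -1.01 to 0.373, limma adjusted p = 0.392), -0.61 for C14R (-1.3 to 0.0784, limma adjusted p = 0.101) and -0.36 for deletion libraries (-1.05 to 0.331, limma adjusted p = 0.332). The C14R value of RN7SL1 was -0.18 without replicate 1 of day 18 (limma adjusted p = 0.489), and it passed without replicate 2 (-0.84, adjusted p = 0.0416) or replicate 3 (-0.82, adjusted p = 0.0437). With 2 other fits RN7SL1 did pass: in C14R without the mean-variance trend (limma adjusted p = 0.0421) and in deletion libraries when only those 6 libraries were fitted (limma adjusted p = 0.0227).

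RN7SL2 moved least. In WT it was at 144429, 149228 and 143634 FPKM at day 0 and at 166218, 121978 and 106542 at day 18. C14R libraries held 131894, 146779 and 144103 FPKM of RN7SL2, then 65256, 144769 and 142015. Deletion libraries held 167425, 149437 and 162907, then 147018, 157411 and 140440. The days overlapped with all 3 constructs. The log2 changes were -0.17 (limma adjusted p = 0.605), -0.35 (limma adjusted p = 0.286) and -0.11 (limma adjusted p = 0.748) for WT, C14R and deletion libraries. The WT interval ran from -0.788 to 0.442, that is from 0.579 to 1.36 times the day 0 level. RN7SL2 in C14R stood at 0.03 without replicate 1 of day 18 (limma adjusted p = 0.914).

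**Figure D1:**
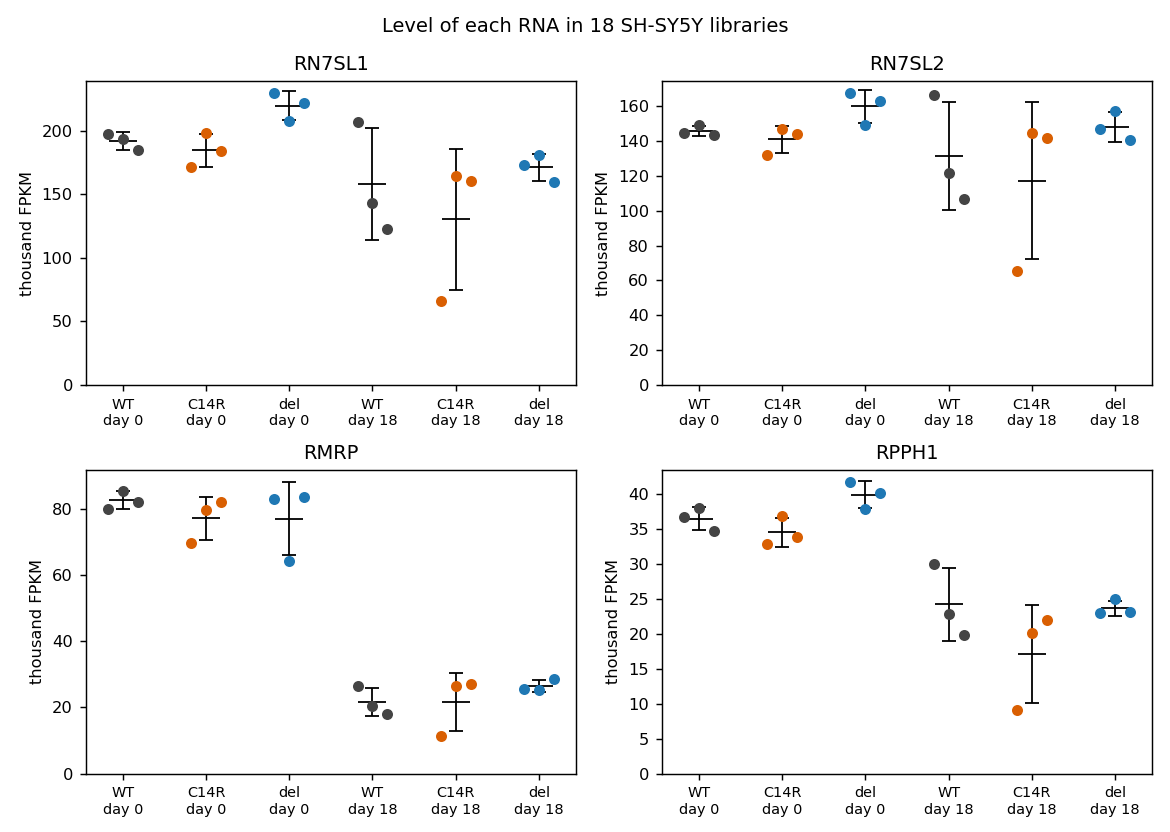
FPKM of RN7SL1, RN7SL2, RMRP and RPPH1 in each of the 18 libraries, by construct and day, with group means and SD. The day 0 and day 18 points of RMRP and of RPPH1 do not overlap, those of RN7SL2 do, and C14R day 18 replicate 1 is the lowest day 18 point for all 4 RNAs.

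So with each construct 2 of the 4 RNAs were called lower at day 18 and 0 higher. Of all genes tested, 34% were called lower and 38.2% higher for WT, 35% and 37.9% for C14R, and 34.4% and 38.6% for deletion libraries. The median log2 change of the 4 RNAs was -0.47 for WT, -0.87 for C14R and -0.56 for deletion libraries, against 0.03, 0.02 and 0.03 over all genes tested. Libraries of the 2 days did not overlap, with day 18 lower, for 2 RNAs in WT and for 3 in C14R and in deletion libraries, against 36%, 34.5% and 36.8% of all genes. Without C14R day 18 replicate 1 all 3 counts were again 2. The C14R median was then -0.45, and 3 RNAs did not overlap, against 38.4% of all genes.

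**Figure D2:**
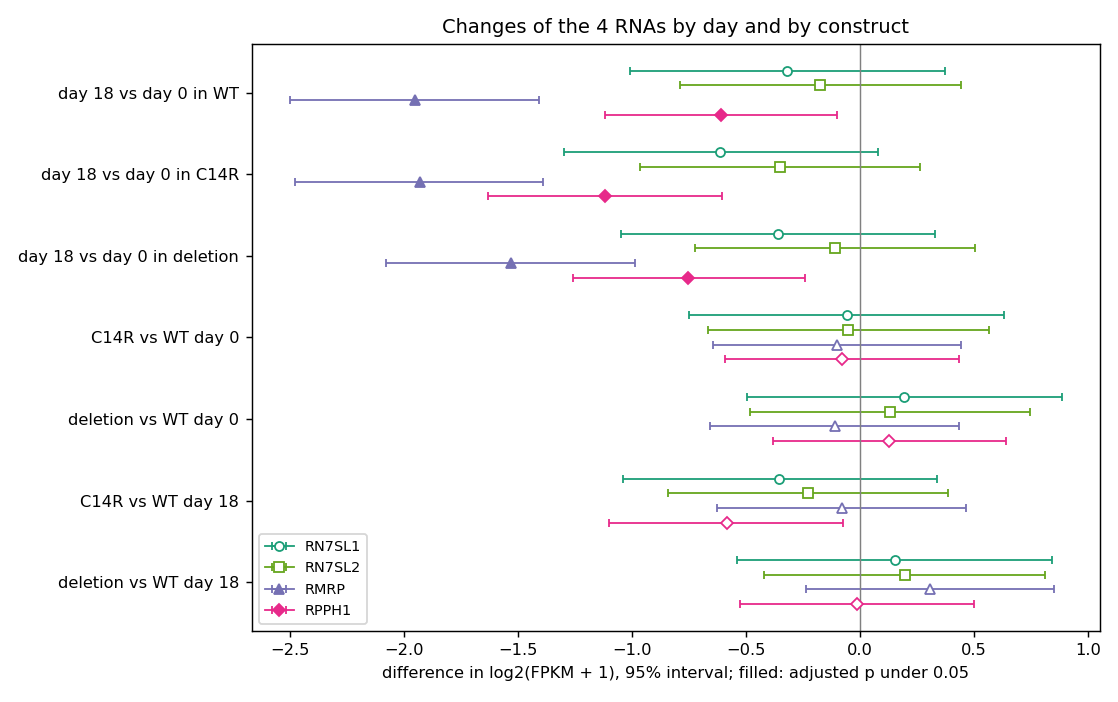
Log2 change in FPKM + 1 from day 0 to day 18 of each RNA for WT, C14R and deletion libraries from the limma fit, with 95% intervals. The RMRP points lie between -1.95 and -1.53, those of RPPH1 between -1.12 and -0.61, and every interval of RN7SL1 and RN7SL2 crosses 0.

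Ordered by mean level, RMRP had all 3 day 0 groups at the top, WT at 82515 ± 2714 FPKM (SD, n = 3), C14R at 77122 ± 6465 and deletion at 76932 ± 11024, and these neighbours overlapped. The day 18 groups followed after a gap, deletion at 26439 ± 1789, C14R at 21675 ± 8868 and WT at 21605 ± 4315. RPPH1 had the same split by day but another order at day 0, deletion at 39932 ± 1950, WT at 36499 ± 1625 and C14R at 34584 ± 2078, and then WT at 24230 ± 5215, deletion at 23701 ± 1090 and C14R at 17094 ± 7024 at day 18. RN7SL1 was highest in deletion libraries at day 0, at 219649 ± 11072 FPKM, which did not overlap the next group, WT day 0 at 191831 ± 6747. The other RN7SL1 groups ran from C14R day 0 at 184453 ± 13179 through deletion day 18 at 171223 ± 10583 and WT day 18 at 157674 ± 44030 to C14R day 18 at 130293 ± 55403, each overlapping the next. RN7SL2 groups overlapped their neighbours throughout, from deletion day 0 at 159923 ± 9358 to C14R day 18 at 117347 ± 45133. Without replicate 1 the C14R day 18 means were 162263 FPKM for RN7SL1, 143392 for RN7SL2, 26791 for RMRP and 21111 for RPPH1, which would place C14R above WT for the first 3.

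A ratio of 2 RNAs within a library does not depend on a factor that scales all genes of that library alike, so the 4 RNAs were also compared with each other. A length correction that differed between libraries would not cancel in these ratios, and its settings are not given in the sources used here. RMRP exceeded RPPH1 in all 9 day 0 libraries and lost most of that lead by day 18. In WT the RMRP to RPPH1 ratio of FPKM was 2.18, 2.25 and 2.36 at day 0 and 0.878, 0.901 and 0.902 on day 18. With the C14R construct it was 2.12, 2.15 and 2.42, then 1.26, 1.31 and 1.23. In deletion libraries it was 1.99, 1.70 and 2.08, then 1.11, 1.01 and 1.23. RMRP was thus below RPPH1 in the 3 WT day 18 libraries and above it in the 6 day 18 libraries of the variants. Over all constructs the mean ratio went from 2.14 ± 0.213 to 1.09 ± 0.173 (SD, n = 9 libraries a day), a log2 change of -0.98. Relabeling days within constructs gave an exact two-sided p = 0.00025, the smallest these relabelings allow, and 0.002 after adjustment over the 24 ratio tests. Without C14R day 18 replicate 1 the change was -0.98 as well (adjusted exact permutation p = 0.002).

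At day 18 the WT libraries lay below all libraries of both variants in this ratio, whereas the levels of RMRP and of RPPH1 overlapped between WT and each variant. WT libraries averaged 0.894 ± 0.0134 (SD, n = 3), C14R libraries 1.27 ± 0.0426 and deletion libraries 1.12 ± 0.108. C14R was 1.42-fold and deletion 1.25-fold above WT, with no overlap. At day 0, C14R (2.23 ± 0.162) overlapped WT (2.26 ± 0.0912), whereas deletion libraries (1.92 ± 0.201) lay below WT with no overlap. Each of these contrasts of 3 against 3 libraries can reach no less than an exact p = 0.1, which is what the 3 non-overlapping ones gave (0.141 after adjustment). The difference between the days' contrasts was tested after these values had been seen, by exact permutation of construct labels within days, in a family of 6 tests. For deletion against WT it was 0.56 on the log2 scale (exact p = 0.005, the smallest of 400 relabelings, adjusted p = 0.03), and for C14R against WT 0.53 (exact p = 0.035, adjusted p = 0.105). Deletion libraries lay wholly below WT at day 0 and wholly above it at day 18, so the deletion p was bound to be the smallest possible. It therefore adds no support to the contrasts of each day. The deletion result passed the threshold in all fits with a variant library left out, but not when any of the 6 WT libraries was (0.06 at the highest adjusted exact p).

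**Figure D3:**
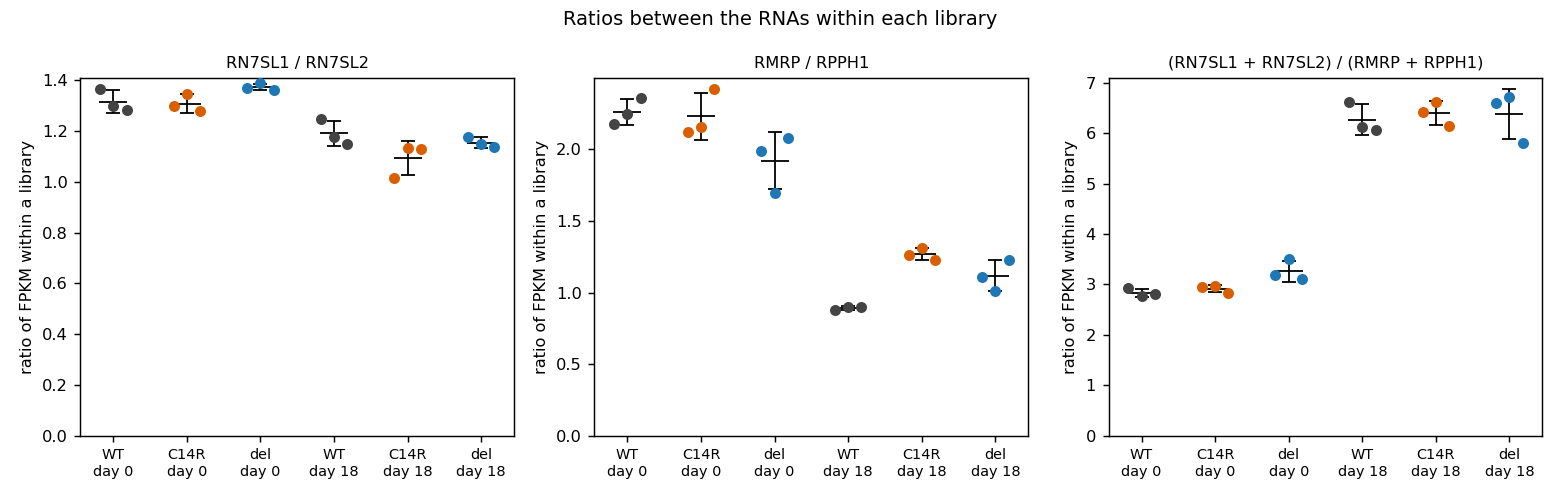
Within-library ratios of FPKM (RN7SL1 to RN7SL2, RMRP to RPPH1, and both SRP RNA genes to both nuclease RNAs) for each library by construct and day. The RMRP to RPPH1 ratio lies between 1.70 and 2.42 in day 0 libraries and between 0.878 and 1.31 in day 18 libraries, where the 3 WT points are the lowest.

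The SRP RNA genes kept closer proportions. The RN7SL1 to RN7SL2 ratio was 1.37, 1.30 and 1.28 in WT at day 0 and 1.25, 1.18 and 1.15 at day 18. It was 1.30, 1.35 and 1.28, then 1.02, 1.13 and 1.13 in C14R libraries, and 1.37, 1.39 and 1.36, then 1.18, 1.15 and 1.14 in deletion libraries. The highest day 18 library was below the lowest day 0 library. Over all constructs the mean went from 1.33 ± 0.0428 to 1.15 ± 0.0603 (SD, n = 9 libraries a day), a log2 change of -0.22 (exact permutation p = 0.00025, adjusted p = 0.002), and the change was -0.20 without C14R day 18 replicate 1. Because the 2 genes are near-identical, this ratio rests on how shared reads were divided.

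Set against the nuclease RNAs, the SRP RNA genes gained. The ratio of RN7SL1 plus RN7SL2 to RMRP plus RPPH1 rose from 2.84 ± 0.0795 (SD, n = 3) to 6.27 ± 0.31 for WT, from 2.91 ± 0.0733 to 6.4 ± 0.236 for C14R and from 3.26 ± 0.206 to 6.38 ± 0.498 for deletion libraries. No day 18 library overlapped any day 0 library. The pooled log2 change was 1.08 (exact permutation p = 0.00025, adjusted p = 0.002), and it was 1.08 again without C14R day 18 replicate 1. The 3 constructs lay close together at day 18, where C14R and WT differed by 0.03 and deletion and WT by 0.02 on the log2 scale.

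With neither variant did any of the 4 RNAs differ from WT past the threshold. In the limma fit 0 of 4 were called for C14R against WT at day 0, deletion against WT at day 0, C14R against WT at day 18 and deletion against WT at day 18. Of all genes, 0%, 0.029%, 0.0363% and 0.0725% were called in those comparisons. At an unadjusted p under 0.05, 1 of the 4 RNAs would have been counted, RPPH1 in C14R at day 18, and 0 in each of the other 3 comparisons, beside 2.81%, 6.22%, 11.1% and 11.4% of all genes in the order above. Both variants were compared with the same WT libraries.

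At day 0, C14R differed from WT by -0.06 for RN7SL1, -0.05 for RN7SL2, -0.10 for RMRP and -0.08 for RPPH1 on the log2 scale (limma adjusted p = 1 for each). Deletion libraries were at 0.19 for RN7SL1 (95% interval -0.496 to 0.886, limma adjusted p = 0.93) and 0.13 for RN7SL2 (limma adjusted p = 0.947), and for both genes all 3 deletion libraries were above all 3 WT libraries. Of all genes, 8.68% were higher in deletion libraries in this non-overlapping way. RPPH1 was at 0.13 and RMRP at -0.11 in the same comparison, with overlap.

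At day 18, RPPH1 was at -0.59 in C14R against WT (95% interval -1.1 to -0.0728, limma adjusted p = 0.377). Without C14R day 18 replicate 1 it was at -0.18 (limma adjusted p = 0.647). The other C14R differences were -0.35 for RN7SL1, -0.23 for RN7SL2 and -0.08 for RMRP with that library, and 0.08, 0.15 and 0.33 without it. Their direction thus turned on 1 library. Deletion libraries differed from WT by 0.15 for RN7SL1, 0.20 for RN7SL2, 0.31 for RMRP (limma adjusted p = 0.686) and -0.01 for RPPH1. The day changes of the variants were also tested against that of WT. In these interaction tests 0 of 4 RNAs passed, beside 0% of all genes for C14R and 0.0145% for deletion, and 0 of 4 reached an unadjusted p under 0.05 in limma, beside 5.73% and 7.36% of all genes.

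The 4 RNAs were next compared across the 9 libraries of each day. At day 0, RN7SL1, RN7SL2 and RPPH1 ran together. Pearson's r of log2(FPKM + 1) was 0.957 for RN7SL1 with RN7SL2 (rho 0.933), 0.967 for RN7SL1 with RPPH1 (rho 0.9) and 0.943 for RN7SL2 with RPPH1 (rho 0.967). Adjusted exact permutation p-values for r, over 12 pairs, were 0.000347, 0.000342 and 8.27e-05. Without the 2 libraries farthest from the median, r was 0.887, 0.917 and 0.857. RMRP did not follow: its r was 0.205 with RN7SL1, 0.409 with RN7SL2 and 0.28 with RPPH1 (adjusted exact permutation p = 0.606, 0.332 and 0.512, with rho 0.217, 0.383 and 0.533). All RNAs of a library share its scaling and preparation. The 9 libraries of each day also span all constructs, and the permutations did not keep constructs apart. Mean RN7SL1, RN7SL2 and RPPH1 were each highest in deletion libraries at day 0, so differences between constructs enter these r values.

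At day 18 all 6 pairs had a high r, from 0.875 for RMRP with RPPH1 (adjusted exact permutation p = 0.0219, rho 0.45) to 0.996 for RN7SL1 with RN7SL2 (adjusted exact permutation p = 3.31e-05, rho 1). Leaving out the 2 farthest libraries took RMRP with RPPH1 to 0.0319, RMRP with RN7SL1 from 0.943 to 0.431 and RMRP with RN7SL2 from 0.962 to 0.594. RPPH1 went from 0.966 to 0.772 with RN7SL1 and from 0.945 to 0.62 with RN7SL2. The r of RMRP with the other 3 RNAs thus rested on those libraries. The rank correlation of RPPH1 with RN7SL1 and with RN7SL2 over all 9 libraries was 0.8 for both (adjusted exact permutation p = 0.0277), while r over the 7 libraries left did not pass (adjusted exact permutation p = 0.133 and 0.284). RN7SL1 with RN7SL2 stayed at 0.962.

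**Figure D4:**
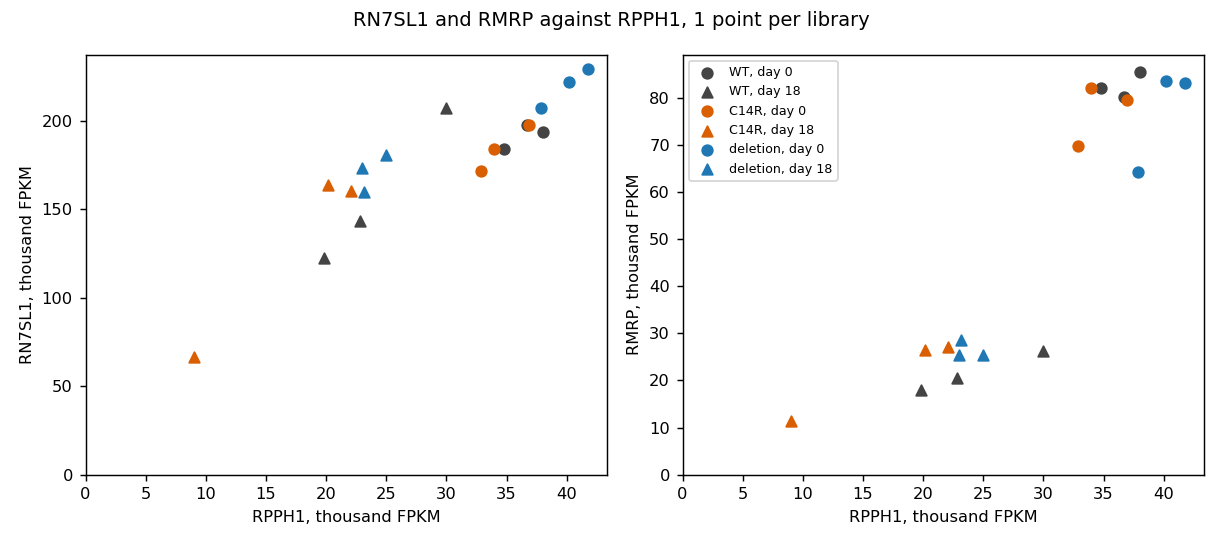
RN7SL1 and RMRP plotted against RPPH1 in FPKM, 1 point per library, coloured by construct and marked by day. RMRP separates the days, and at day 18 the single low point is C14R replicate 1.

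The tested genes most like each RNA over all 18 libraries, by Pearson's r of log2(FPKM + 1), are given as a description, since most tested genes differed between the days. RN7SL1 was most like RN7SL2 (0.97), OAZ1 (0.97) and MIF (0.969). RN7SL2 was most like RN7SL1, COPE (0.953) and PHPT1 (0.941). RMRP was most like ATP5G2 (0.993), REC8 (0.99) and CAPN15 (0.988), and RPPH1 was most like COX5B (0.985), SCARNA2 (0.983) and CD151 (0.976). With group means removed, RN7SL1 was most like RN7SL2 (0.996), RPPH1 (0.987) and CD151 (0.985), and RPPH1 most like RN7SL2 (0.987), RN7SL1 (0.987) and MIF (0.98). RN7SL2 was then most like RN7SL1, RPPH1 and POLR2G (0.979). RMRP was closest to SCARNA6 (0.971), ATG4B (0.958) and GNB2 (0.956), and none of the other 3 RNAs was among its first 3. Neither measure was computed without C14R day 18 replicate 1, which lay far below the rest of its group for each RNA. The deviations from group means therefore rest in large part on that library.

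None of the protein genes listed as partners of these RNAs changed by as much as RMRP in WT. Of the 11 protein genes of RNase P and RNase MRP, 6 were called lower and 1 higher at day 18 in WT, with a median log2 change of -0.23 against 0.03 over all genes tested, of which 34% were called lower and 38.2% higher. POP1, the largest shared subunit, went from 6.329 ± 0.296 FPKM to 2.006 ± 0.149 (SD, n = 3), with a fitted log2 change of -1.29 (limma adjusted p = 3.85e-10). RPP25 fell by 0.52 and POP7 by 0.45, and POP5 rose by 0.43. When small RNA genes were left out of the library scaling, the counts were 3 lower and 2 higher, and RPP25L and RPP38 turned positive. That scaling moved all genes: their median in WT was then 0.205, and 68.3% of all genes called were higher.

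Of 8 genes for SRP proteins and the SRP receptor, 5 were called lower and 1 higher in WT, with a median of -0.19, beside the same shares of all genes. SRP68 fell by 0.32 and SRP72 by 0.30, which bind the SRP RNA as a pair, and SRP9, of the domain that slows elongation, fell by 0.26. SRP54, the subunit that binds the signal sequence, rose by 0.13. With small RNA genes left out of the scaling, 1 was lower and 2 higher. The median was then 0.02, beside 0.205 over all genes tested, and SRP14, SRP19, SRPR and SRPRB turned positive. Of 11 translocon genes, 5 were lower (SSR4 by 0.86, SSR3 by 0.64 and SEC61A1, the channel subunit, by 0.57 the most) and 3 higher (SEC61A2 by 1.22, SEC62 by 0.75 and SEC63 by 0.29). With small RNA genes left out of the scaling, 4 were lower and 6 higher, beside 68.3% higher among all genes called, and SSR1 turned positive.

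Of 32 genes of the RNA polymerase III machinery, 19 were called lower and 4 higher in WT, beside 34% and 38.2% of all genes, with a median of -0.28. The largest falls were those of GTF3C6, a subunit of TFIIIC (by 1.12), POLR3K (by 0.69) and POLR1C (by 0.68), both polymerase subunits. The largest rises were those of SNAPC2, a subunit of the factor that acts at promoters of the RPPH1 and RMRP type (by 0.93), POLR3GL (by 0.59) and CRCP (by 0.39). With small RNA genes left out of the scaling, 13 were lower and 11 higher, beside 68.3% higher among all genes called. GTF3C1, POLR3A, POLR3C and ZNF143 then turned positive. Among 4 genes of the La and Ro group, which bind or cap polymerase III transcripts, MEPCE fell by 0.92 and SSB, the La protein, by 0.18, and LARP7 rose by 0.28. SSB was at 0.02 with small RNA genes left out of the scaling. No gene of these lists passed the threshold in any comparison of a variant with WT.

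**Figure D5:**
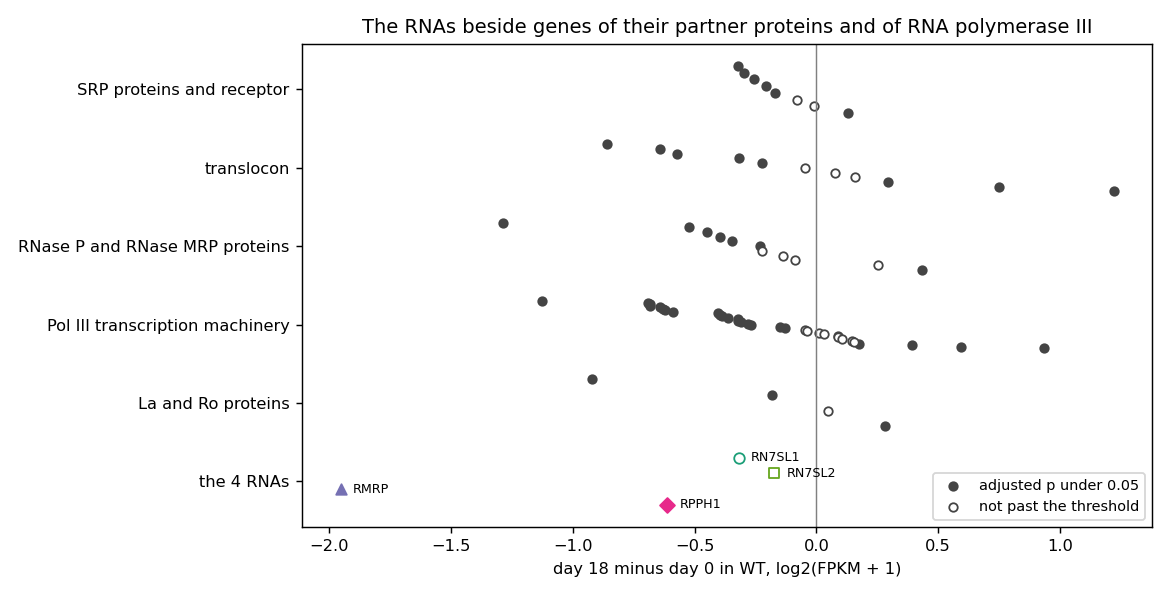
Log2 change from day 0 to day 18 in WT for genes of the partner lists, 1 point per gene, beside the 4 RNAs. RMRP at -1.95 lies below POP1 at -1.29, the lowest of the RNase P and RNase MRP protein genes.

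Of 33 other structured RNAs listed for comparison, 23 were at 0 in every library, among them 7SK (RN7SK), so their absence here says nothing about their level in the cells. Of the 9 tested, 4 were called lower and 0 higher in WT by limma, beside 34% and 38.2% of all genes. SNORA73A, an H/ACA-type small nucleolar RNA, went from 2809 ± 51.4 to 418.5 ± 112 FPKM (SD, n = 3), with a fitted log2 change of -2.78 (limma adjusted p = 9.59e-09). TERC fell by 0.37 (limma adjusted p = 0.00427). SNORD3C and SNORD3D were the others called, and both were listed at 0 in some libraries.

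RMRP and RPPH1 each lie head to head with a protein-coding gene, and neither neighbour was called lower with any construct. PARP2, next to RPPH1, had 15.78 ± 1.17 FPKM at day 0 and 15.56 ± 1.88 at day 18 in WT (SD, n = 3), a log2 change of -0.02 (limma adjusted p = 0.833). CCDC107, next to RMRP, was at 0.24 in WT (limma adjusted p = 0.122) and 0.23 in deletion libraries (limma adjusted p = 0.147), and it was called higher in C14R (0.64, limma adjusted p = 0.00049, and 0.68 with adjusted p = 0.000834 without replicate 1 of day 18). With small RNA genes left out of the scaling, PARP2 was at 0.17 in WT. The windows between the pairs are shown because RMRP and RPPH1 were called lower and their neighbours were not. They are RefSeq windows of GRCh38.p14, 250 bases before to 50 bases after the protein gene's start, on its plus strand, CCDC107 at chr9:35658042-35658341 and PARP2 at chr14:20343385-20343684. Capitals mark matches to the octamer ATGCAAAT or to TTATAA, both searched on both strands.
CCDC107: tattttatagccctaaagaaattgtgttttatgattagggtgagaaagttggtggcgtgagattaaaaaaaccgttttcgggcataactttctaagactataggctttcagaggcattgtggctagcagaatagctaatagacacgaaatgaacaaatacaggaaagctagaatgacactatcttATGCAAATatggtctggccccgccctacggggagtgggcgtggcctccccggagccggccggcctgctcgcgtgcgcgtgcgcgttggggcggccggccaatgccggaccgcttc
PARP2: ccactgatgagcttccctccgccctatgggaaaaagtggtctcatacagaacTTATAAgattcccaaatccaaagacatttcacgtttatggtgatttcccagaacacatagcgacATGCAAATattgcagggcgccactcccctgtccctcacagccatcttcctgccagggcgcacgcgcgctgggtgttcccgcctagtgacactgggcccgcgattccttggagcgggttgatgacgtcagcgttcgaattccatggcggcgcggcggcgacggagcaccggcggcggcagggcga
The octamer occurred once in each window, 94 bases upstream of the RPPH1 start and 209 bases upstream of the RMRP start. TTATAA occurred 30 bases upstream of the RPPH1 start and not in the CCDC107 window, which leaves out the bases nearest the RMRP start. Only this exact sequence was searched, so its absence does not show that RMRP lacks a similar element. At its end nearest RMRP, the CCDC107 window opens with the AT-rich stretch tattttata, printed on the strand opposite to RMRP. The search did not cover that stretch's sequence. Of 35116 such windows, 1.77% held the octamer and 5.19% held TTATAA. The PARP2 window overlaps the first 23 bases of RPPH1.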

How the data were processed

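Total RNA of SH-SY5Y cells was rRNA-depleted with Ribo-Zero and made into libraries with the NEBNext Ultra kit, per the labels' protocols. The authors deposited 1 FPKM value per gene symbol and library. The submitters' processing notes name TopHat2, STAR, Cufflinks 2.2.1 and hg38 without their roles; the annotation and the use of strand are not given in the sources used here. Every column had its own sample (0 columns without one), and groups came from the titles.

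The 4 RNAs and the gene lists were chosen with earlier results of these data known. FPKM were used as deposited, as log2(FPKM + 1); a fold on this scale understates changes of low genes. Of 26372 symbols, 13785 with a mean FPKM of at least 1 were tested in 1 limma 3.58.1 fit (R 4.3.3) of 6 group means with empirical Bayes moderation and a mean-variance trend. P-values were Benjamini-Hochberg adjusted over all genes tested, with a threshold of 0.05. Ratios and correlations were computed in Python 3.11.15 with exact two-sided permutation tests; 3 against 3 libraries have 20 relabelings and cannot go below 0.1. Total counts are unknown, so no counting interval is given. Scripts were tested on simulated data. Named genes were the 4 RNAs, ZNHIT3, the 3 most alike genes by each measure, and in each list the up to 3 largest rises and falls past the threshold in WT, with any listed structured RNA or neighbour gene. Genes named as turning sign under another scaling, and the markers, were named after their values were seen. Alternatives were a pseudocount of 0.1, no filter or a mean of at least 5, 3 other scalings, a replicate block, no trend, array weights, fitting only the libraries compared, and leaving out each library. Gene positions came from GENCODE 29, the sequences of RN7SL1 and RN7SL2 are not reported here, and RefSeq promoter windows matched 0 of the 4 RNAs.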

Additional observations from a re-analysis of the deposited data

Results flagged for a closer look

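The RMRP to RPPH1 ratio differed between deletion and WT libraries in opposite directions on the 2 days: all 3 deletion libraries were below the WT mean at day 0 and all 3 above it at day 18. The difference between the days' log2 contrasts was 0.56 (0.5598, exact permutation p = 0.005, adjusted p = 0.03 over 6 tests). The test was run after the pattern had been seen, and the adjusted p was 0.06 when any 1 of the 6 WT libraries was left out. Deletion and WT libraries overlapped on neither day, in opposite directions. That pattern alone gives the smallest p possible, so the test adds no support to it.

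The RN7SL1 to RN7SL2 ratio crossed with the signs exchanged, all 3 deletion libraries above the WT mean at day 0 and all 3 below it at day 18. Here, however, deletion and WT libraries overlapped on both days, and this ratio rests on how shared reads were divided. The difference of the log2 contrasts was -0.1061 (exact permutation p = 0.06, adjusted p = 0.12 over 6 tests), which did not pass the threshold. Groups of 3 libraries were not tested for outlying values.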

How the results depend on the processing

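The 24 within-library ratio tests kept direction and call with 1 FPKM added to both terms, which hardly moves ratios of values this high, and with the replicate block, under which 3 against 3 libraries could not pass; of their calls the 3 pooled day changes were the ones that could be lost, and they had an adjusted exact permutation p of 0.0312. The ratio interactions were not run with these settings. Of the member changes, 328 of 360 other settings and 618 of 648 fits with 1 library left out did so. A change of 0 after quantile normalization, which has no direction, was counted as kept where the call stayed the same.

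Quantile normalization gives the k-th highest gene of every library the same value, and these RNAs hold the highest ranks, so its values follow their order alone. With it, the day changes in WT were 0.2504 for RN7SL1, 0.3241 for RN7SL2 and 0.6346 for RPPH1. In C14R they were 0.5007, 0.6483, 0 for RMRP and 0.2115 for RPPH1, and in deletion libraries 0.5007, 0.6483, 0 and 0, so that 0 RNAs were called lower in either variant. Deletion against WT at day 0 was then -0.2504 for RN7SL1 and -0.3241 for RN7SL2, C14R against WT at day 18 was 0.9226 for RMRP, and the interactions were 0.2504 (RN7SL1, both variants) and 0.3241 (RN7SL2, C14R).

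Leaving small RNA genes out of the scaling sum shifted the median change of all genes by 0.179 for WT, 0.162 for C14R and 0.191 for deletion libraries, and the share of higher calls in WT went to 68.3%, from 5260 higher and 4686 lower. RN7SL2 was then at 0.03583 in WT and 0.1125 in deletion libraries, RPPH1 in WT at -0.4027 with 1 RNA called, and the RMRP interaction in C14R at -0.002521. Without a filter, RPPH1 stood at -0.6116 in WT and -0.7524 in deletion libraries with 1 RNA called in each. RN7SL1 passed in C14R without the trend (-0.6126) and in deletion libraries fitted alone (-0.3599). Array weights gave C14R against WT at day 18 as 0.0642 for RN7SL1, 0.1354 for RN7SL2 and 0.3141 for RMRP, deletion against WT as 0.02653 for RPPH1, and interactions of 0.1357 (RN7SL1, C14R), 0.1943 (RN7SL2, C14R) and 0.01401 (RN7SL1, deletion). The cause of these differences was not tested. Correlations without the 2 farthest libraries were -0.281 for RN7SL1 with RMRP at day 0, and 0.431, 0.772, 0.594, 0.62 and 0.0319 at day 18.

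With 1 library left out, the WT count of called RNAs was 1 to 2, and RPPH1 in WT ran from -0.7765 to -0.4788. Day changes in C14R ran from -0.8355 to -0.1826 for RN7SL1 and from -0.5483 to 0.02652 for RN7SL2. RMRP in deletion against WT at day 0 ran from -0.1756 to 0.01409. C14R against WT at day 18 ran from -0.5759 to 0.07704 (RN7SL1), -0.4253 to 0.1495 (RN7SL2) and -0.2933 to 0.329 (RMRP), and deletion against WT from -0.01059 to 0.3674 (RN7SL1) and -0.1441 to 0.1536 (RPPH1). C14R interactions ran from -0.5175 to 0.1355 (RN7SL1), -0.3752 to 0.1996 (RN7SL2) and -0.1928 to 0.4294 (RMRP), and deletion interactions from -0.2053 to 0.1726 (RN7SL1), -0.0753 to 0.2455 (RN7SL2) and -0.2736 to 0.02408 (RPPH1). Ratio contrasts ran from -0.0299 to 0.01934 (RN7SL1 to RN7SL2, C14R, day 0), -0.08117 to 0.01323 (RMRP to RPPH1, C14R, day 0) and -0.016 to 0.0897 (SRP to nuclease RNAs, deletion, day 18). Ratio interactions ran from 0.4917 to 0.5861 (RMRP to RPPH1, C14R), 0.4722 to 0.6279 (the same, deletion) and -0.03381 to 0.03189 (SRP to nuclease RNAs, C14R).

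List counts and medians in WT moved as follows, beside a median of 0.205 over all genes tested with small RNA genes left out of the scaling. With small RNA genes left out of the scaling, SRP genes were 2 higher and 1 lower (median 0.0174), translocon genes 6 higher (0.1504), RNase P and MRP genes 2 higher and 3 lower (-0.04602), polymerase III genes 11 higher (-0.1034), La and Ro genes 2 higher and 1 lower (0.1372) and the 2 neighbour genes 1 higher (0.277). Quantile normalization gave 0 SRP genes higher and 3 lower (-0.1034), 5 translocon genes higher, 1 La or Ro gene lower and an RNase P and MRP median of -0.2624. Median-of-ratios scaling gave 0 SRP genes higher and medians of -0.238, -0.09651, -0.2769, -0.3161 and -0.1188 for the SRP, translocon, RNase P and MRP, polymerase III, and La and Ro lists. Other medians were -0.2572 (RNase P and MRP), -0.3192 (polymerase III) and -2.781 (structured RNAs) with a pseudocount of 0.1, -0.1498 and -2.079 for the last 2 lists at a mean of at least 5, and -2.02 for structured RNAs without a filter, where 1 La or Ro gene was lower.

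Counts over all genes that moved by more than 1.5 times were those of variants against WT: for deletion at day 18, 10 genes became 95 with array weights, 26 with quantile normalization and 2 with only the libraries compared, and for C14R at day 18, 5 became 205 with array weights. With 1 library left out these 2 counts ran from 2 to 51 (highest without C14R day 18 replicate 1) and from 4 to 126 (highest without C14R day 18 replicate 2). The replicate numbers are not said to pair samples, and same-numbered deviations correlated from -0.363 to 0.168; the replicate block left all counts of called RNAs unchanged, with RPPH1 in WT at an adjusted limma p of 0.0411, and took deletion against WT at day 18 from 10 genes to 6. Depth in reads is unknown here.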
